A study of Homo sapiens with 6 samples.

Results

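Chaperones are proteins that bind unfolded or partly folded proteins and help them reach their native shape. In the cytosol, HSP70 proteins take hold of exposed hydrophobic stretches and are switched by J-domain proteins, which start ATP hydrolysis, and by exchange factors, which release ADP. Many clients then pass to HSP90, whose cycle is steered by cochaperones, or to the ring-shaped chaperonin TRiC, which folds actin and tubulin. The transcription factor HSF1 raises many of these genes when unfolded proteins accumulate. Liver cells make large amounts of secreted protein, and hepatocellular carcinoma often holds high levels of HSP70 and HSP90.

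The 42 genes described here were chosen by name as heat shock proteins and chaperones: 10 HSP70 and HSP110 genes, 2 HSP90 genes, 3 small heat shock protein genes, the 2 genes of the mitochondrial chaperonin, 8 J-domain genes, 3 BAG genes, 5 HSP90 cochaperone genes, 7 TRiC subunit genes and 2 heat shock factor genes. The choice was made with earlier results of these data known. The genes were found by symbol among the 29908 genes of the table, where they took 43 rows because HSPA14 has 2. The set is not purely cytosolic. HSPA9, HSPD1, HSPE1 and DNAJA3 encode proteins of the mitochondrial matrix, and HSPA13 encodes a protein of microsomes, the membrane fraction that holds the endoplasmic reticulum (ER).

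The RNA came from Hep3B, an established human hepatocellular carcinoma line, in 2 groups of 3 libraries. In Hep3B-KD cells, a short hairpin RNA delivered by lentivirus targeted DAGLA, which encodes the diacylglycerol lipase that makes the endocannabinoid 2-arachidonoylglycerol. Hep3B-Con cells, the control group, carried a virus that the sample labels call shControl and the series text calls an empty vector. Both groups were infected at a multiplicity of infection of 5 and then kept under puromycin, a drug that kills cells without the virus. The groups rest on 1 cell line and 1 hairpin. The 3 replicates are called biological, without a statement of what was repeated, so p-values measure only the spread between these samples. Heat shock was not part of the design, and the comparison asks how the basal level of these transcripts differed between knockdown and control cells.

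Values are FPKM, reads scaled to the exon length of the gene and to the size of the library. The length counts every annotated exon, used by the cells or not, such as 2980 bases for HSP90AB1 and 5248 for HSP90AA1. Levels, ratios and orders between genes are therefore rough. Each library held 15861039 to 17572714 reads, and a member was counted with 60 to 46576 reads in a library. DAGLA itself (ENSG00000134780, chromosome 11, 61680433 to 61747001, GRCh38) stood at 9.42, 9.40 and 9.02 FPKM in Hep3B-Con and at 4.62, 4.46 and 4.78 in Hep3B-KD, a log2 fold change of -0.99 (SE 0.0441, limma adjusted p = 5.25e-06). The hepatocyte-type markers were present: ALB, the albumin gene, rose from 2042 ± 25.9 to 3315 ± 6.90 FPKM (SD, n = 3 each), and 7 of the 8 listed markers were higher and 1, HNF4A, was lower. The listed markers were ALB, AFP, APOA1, APOB, SERPINA1, TTR, HNF4A and GPC3. Their summed level was 2699 to 2745 FPKM in Hep3B-Con and 4391 to 4413 in Hep3B-KD. Of 11 markers of blood, endothelial and stromal cells, 10 had a row, with a summed level of 4.42 to 5.19 FPKM in Hep3B-Con and 3.62 to 3.78 in Hep3B-KD. PTPRC and CDH5 reached at most 0.0377 and 0.0189 FPKM, but PDGFRB was at 2.09 to 2.77 FPKM and CD14 at 0.754 to 1.28. Of the 3 that were tested, 2 were called lower in Hep3B-KD: PDGFRB (log2 fold change -0.32, limma adjusted p = 0.00447) and COL1A1 (-1.20, limma adjusted p = 0.0072). What part the shift of the listed hepatocyte-type markers has in the results below was not tested.

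Hep3B-Con replicate 1 and Hep3B-KD replicate 2 stood apart for a few genes, among them HSPB1. Counts are therefore also given without both libraries, a choice made after the values were seen. In bulk RNA, a change in the mix of cells cannot be told apart from a change in RNA per cell.

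The sequences that most directly tie some of these genes to HSF1 are heat shock elements. In the perfect form searched here, the element has 3 units of GAA or TTC in alternating orientation with 2 free bases between them, on either strand. RefSeq promoter windows (GRCh38.p14), which run from 250 bases before to 50 bases after the gene start, were found for 38 of the 42 genes, and not for HSPB11, HSF1, FKBP4 and HSPA14. Perfect 3-unit elements were found in HSPA8, DNAJA1 and DNAJB6. They are printed with flanking bases because these are the members with the most complete match, with the 3-unit element in capitals and each strand read 5′ to 3′ in the direction of the gene. The positions are chr11:123062334-123062386 and chr11:123062159-123062211 on the minus strand for HSPA8, chr9:33025256-33025296 on the plus strand for DNAJA1 and chr7:157336853-157336905 on the plus strand for DNAJB6.
HSPA8 element 1: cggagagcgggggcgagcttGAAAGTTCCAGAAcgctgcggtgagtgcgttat
HSPA8 element 2: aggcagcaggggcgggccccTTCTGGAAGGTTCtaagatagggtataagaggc
DNAJA1 element: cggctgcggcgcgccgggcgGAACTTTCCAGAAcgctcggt
DNAJB6 element: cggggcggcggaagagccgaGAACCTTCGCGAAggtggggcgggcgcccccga

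Distances are counted from the start that each RefSeq window uses. The first HSPA8 element lies 230 to 218 bases before that start and the second 55 to 43 bases before it. In DNAJB6 the element lies 131 to 119 bases before that start, and in DNAJA1 it lies 4 to 16 bases past it. All of these elements lie inside the wider annotated gene spans of GENCODE release 29, such as 123057489 to 123063230 for HSPA8. These 3 promoters are 7.89% of the 38 found, against 0.310% of 9354 promoters of tested genes and 0.487% of all 27305 promoters. A shorter match of 2 neighbouring units, which every 3-unit element also contains, was found in 11 members (28.9%), against 9.62% of tested genes and 13.7% of all promoters; this search was added after the values were seen. The 11 were HSPA1A, HSPA1B, HSPA8, HSPA9, HSPB1, HSPB8, DNAJA1, DNAJB6, BAG2, CCT4 and TCP1. A match is a description of the letters and not a bound site.

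The comparison was made with limma on the log2(FPKM + 0.1) scale across the 14221 genes whose mean reached 0.5 FPKM, with Benjamini-Hochberg adjustment over all of them, and a gene is called at an adjusted p under 0.05. On this scale the fold change of low genes is understated. All 42 genes passed the filter. Of these, 23 were lower in Hep3B-KD, 9 were higher and 10 were not called. The lower ones were 54.8% of the members, against 23.8% of all genes tested, and the higher ones were 21.4%, against 36.1%. In either direction 76.2% were called, against 59.9%. Since the genes were chosen with earlier results of these data known, these shares are a description and no test of the set. The median log2 fold change was -0.21 over the members and 0.11 over all genes tested.

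The changes were small. The log2 fold changes ran from -0.70 to 0.54, so that none of the 42 reached 2-fold at any p in this fit, whereas 8.83% of all genes tested reached it with an adjusted p under 0.05, and 3 (HSPA8, HSPA13 and AHSA1) passed a 1.5-fold change. The 3 values of one group lay wholly on one side of the other group for 33 of the 42 genes (78.6%, against 66.9% of all genes tested), and every called member was among them. Without Hep3B-Con replicate 1 and Hep3B-KD replicate 2, 22 were lower and 7 higher. When the libraries were centred on their median log ratio, which takes away the shift of 0.11 in the median of all genes, 27 were lower and 7 higher. The share of calls over all genes that were higher then went from 60.2% to 48.5%.

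**Figure D1:**
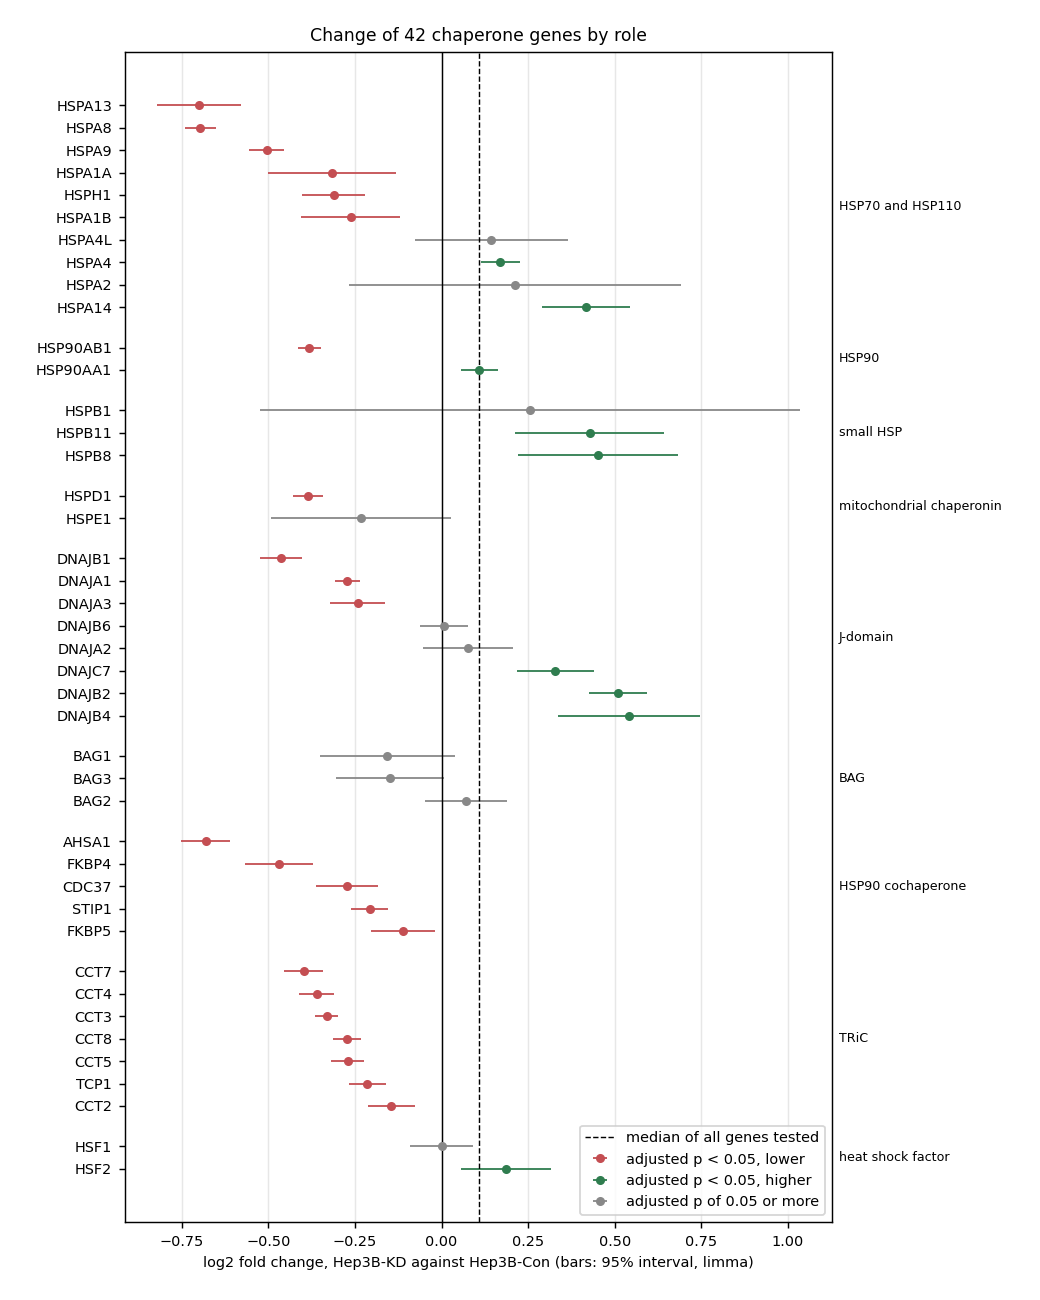
Log2 fold change of the 42 genes, Hep3B-KD against Hep3B-Con, ordered within each role (x axis: log2 scale, bars: 95% interval from limma, dashed line: median of all genes tested at 0.11). All 7 TRiC subunits and all 5 HSP90 cochaperones lie left of 0, and HSPB1 has the widest interval.

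Among the HSP70 and HSP110 genes, 6 of 10 fell, 2 rose and 2 were not called. Over all genes tested, 23.8% fell and 36.1% rose. HSPA8 (ENSG00000109971, chromosome 11, 123057489 to 123063230, minus strand), the constitutive cytosolic HSP70 that also strips clathrin from vesicles, stood at 427, 434 and 435 FPKM in Hep3B-Con and at 272, 262 and 266 in Hep3B-KD. All 3 knockdown libraries lay far below the controls, a log2 fold change of -0.70 (SE 0.0184, adjusted p = 6.92e-07). HSPA9, the mitochondrial HSP70 mortalin, went from 73.4, 75.2 and 72.6 to 52.3, 52.2 and 51.4 FPKM. Its groups did not overlap, and its log2 fold change was -0.50 (SE 0.0211). HSPA13, the microsomal family member, fell as far as HSPA8 from a lower level, from 25.0, 24.0 and 26.4 to 15.7, 16.1 and 14.6 FPKM (log2 fold change -0.70, SE 0.0506, adjusted p = 3.9e-05).

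The HSP110 proteins are exchange factors for HSP70, and their genes did not move together. HSPH1 (HSP105) fell from 22.1, 23.1 and 22.8 to 18.4, 19.0 and 17.4 FPKM, a log2 fold change of -0.31 (SE 0.0382). HSPA4 (APG-2), the more abundant of the pair, rose from 54.9, 56.6 and 55.3 to 62.8, 61.2 and 63.8 FPKM, a log2 fold change of 0.17 (SE 0.0235, adjusted p = 0.00081). The ratio of HSPA4 to HSPH1 was 2.45 ± 0.0284 in Hep3B-Con and 3.43 ± 0.215 in Hep3B-KD (SD, n = 3 each), and the ratio of HSPA8 to HSPA4 went from 7.77 ± 0.0978 to 4.26 ± 0.0877. HSPA4L, the third HSP110 gene, was at 1.85 to 2.29 FPKM and was not called (adjusted p = 0.219).

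HSPA1A and HSPA1B are the stress-induced HSP70 genes, neighbours on chromosome 6 whose coding sequences are identical at 1922 of 1926 bases (99.79%). Reads in the shared part could be split between them or left uncounted, so both values and their sum are uncertain. HSPA1A was at 10.4, 10.9 and 11.9 FPKM in Hep3B-Con and at 9.12, 8.05 and 9.47 in Hep3B-KD, and HSPA1B was at 9.84, 11.1 and 11.1 and at 9.28, 8.64 and 8.75. With the reads of both genes summed, every knockdown library lay below every control and the log2 fold change was -0.29 (adjusted p = 0.00537). As counted, the pair was far below HSPA8 in both groups, at 0.0503 ± 0.00282 of its level in Hep3B-Con and 0.0666 ± 0.00257 in Hep3B-KD. How far uncounted shared reads lowered these values was not tested. Of HSPA1B exons, 36.5% also belong to AL671762.1, which had no row.

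HSPA14, a ribosome-linked HSP70, has 2 identifiers that share 460 exon bases. The row ENSG00000187522 rose from 5.39 ± 0.206 to 7.24 ± 0.353 FPKM (log2 fold change 0.42, SE 0.0531), whereas ENSG00000284024, the row with the lower mean, was not called (log2 fold change 0.10, adjusted p = 0.277). The rise of HSPA14 is uncertain for that reason. HSPA2, best known from the testis, was near the filter at 0.645 to 0.928 FPKM, with overlapping groups.

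**Figure D2:**
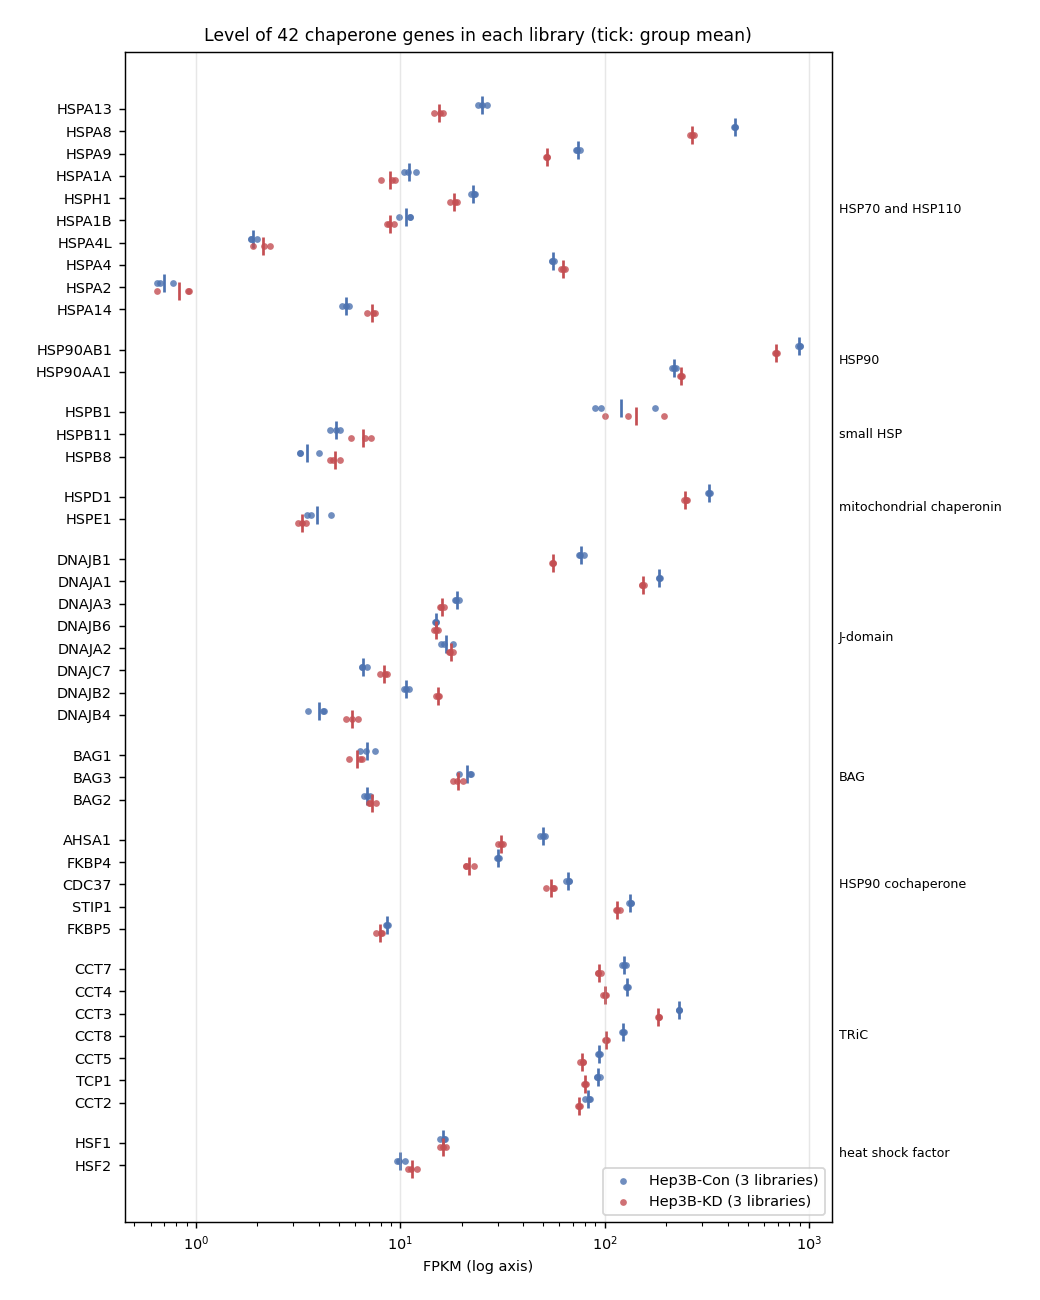
FPKM of each of the 42 genes in every library on a log axis (blue: 3 Hep3B-Con libraries, red: 3 Hep3B-KD libraries, tick: group mean). HSP90AB1, HSPA8 and HSPD1 were the most abundant in both groups, followed by HSP90AA1 or CCT3, and the points of HSPB1 are spread within each group.

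The HSP90 genes parted as well. HSP90AB1 (ENSG00000096384, chromosome 6, 44246166 to 44253888, plus strand), the constitutive form, was the most abundant of the 42 genes at 882, 899 and 899 FPKM in Hep3B-Con and fell to 693, 681 and 684 in Hep3B-KD. The 3 knockdown values were the lowest 3 by a wide margin, a log2 fold change of -0.38 (SE 0.0137, adjusted p = 2.36e-06). HSP90AA1 (ENSG00000080824, chromosome 14, 102080738 to 102139699, minus strand), the inducible form, was at 213, 224 and 219 FPKM in Hep3B-Con and at 239, 235 and 233 in Hep3B-KD. This small rise (log2 fold change 0.11, SE 0.0220, adjusted p = 0.00471) was the size of the median over all genes, and it depended on the scaling: with centring it was 0.01 (adjusted p = 0.828) and with quantile normalization 0.27 (adjusted p = 7.4e-05).

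The ratio of HSP90AB1 to HSP90AA1 was 4.14, 4.01 and 4.11 in Hep3B-Con and 2.90, 2.90 and 2.93 in Hep3B-KD. Every knockdown library thus held relatively less of the constitutive form. The sum of both genes went from 1112 ± 15.3 to 921 ± 8.52 FPKM. Going by the ratios, most of that sum was HSP90AB1 in either group, within the limit of the unlike exon lengths. Pseudogene rows were minor: HSP90AA2P had 1.87 to 2.72 FPKM and HSP90AB3P 1.92 to 2.91.

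The HSP90 cochaperones fell in all 5 cases, against 23.8% of all genes tested. AHSA1, which speeds the ATPase of HSP90, was at 48.5, 50.1 and 50.8 FPKM in Hep3B-Con and at 30.2, 31.7 and 31.2 in Hep3B-KD. Its groups were far apart, with a log2 fold change of -0.68 (SE 0.0293, adjusted p = 4.6e-06). FKBP4 (FKBP52), a prolyl isomerase of steroid receptor complexes, fell from 29.6, 29.9 and 30.2 to 21.0, 22.9 and 20.9 FPKM (log2 fold change -0.47, SE 0.0408). CDC37, which brings kinases to HSP90, fell from 66.0 ± 1.47 to 54.6 ± 2.50 FPKM (-0.27), and STIP1 (HOP), which joins HSP70 to HSP90, fell from 133 ± 1.98 to 115 ± 2.62 FPKM (-0.21). FKBP5 (FKBP51), a glucocorticoid-induced relative of FKBP4, fell least, from 8.58 ± 0.0776 to 7.94 ± 0.267 FPKM (-0.11, adjusted p = 0.0418), and lost its call whenever any library but Hep3B-KD replicate 2 was left out (adjusted p from 0.0676 to 0.115). With centring, FKBP5 was at -0.22 (adjusted p = 0.00264). It was not called with the libraries rescaled to the same sum (-0.09, adjusted p = 0.0978) or with no filter (adjusted p = 0.0644). STIP1 was not called after quantile normalization (log2 fold change -0.02, adjusted p = 0.441).

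TRiC is a double ring of 8 different subunits, of which 7 were among the members. Over all genes tested, 23.8% fell, and 57.1% of those whose mean reached 50 FPKM did. All 7 TRiC members fell. Their log2 fold changes were close together, from -0.40 for CCT7 to -0.14 for CCT2, a spread of 0.25. CCT3, the most abundant of the 7, was at 229, 231 and 229 FPKM in Hep3B-Con and at 183, 184 and 181 in Hep3B-KD. The other changes were -0.36 for CCT4, -0.33 for CCT3, -0.27 for CCT8, -0.27 for CCT5 and -0.21 for TCP1. Summed over the 7 genes, the level was 866, 873 and 879 FPKM in Hep3B-Con and 708, 712 and 709 in Hep3B-KD, with no overlap.

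CCT6A, the subunit gene outside the list, did not follow. It was at 221 ± 5.78 FPKM in Hep3B-Con and 221 ± 2.78 in Hep3B-KD (log2 fold change 0.00, adjusted p = 0.952). With quantile normalization the falls of the 7 members were smaller, from -0.22 for CCT7 to -0.02 for CCT2, and CCT2 and TCP1 were not called (adjusted p = 0.634 and 0.0888), whereas with centring CCT2 was at -0.25. Of CCT5 exon bases, 30.1% lie opposite AC012640.4, and since counting by strand is not stated, reads of the pair cannot be told apart.

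Of the 8 genes of J-domain proteins, which choose clients for HSP70, 3 were lower, 3 higher and 2 not called. The part that was higher was near the 36.1% of all genes tested, of which 23.8% were lower. DNAJB1 (HSP40), the stress-linked partner of HSP70, was at 76.0, 74.8 and 79.2 FPKM in Hep3B-Con and at 55.2, 55.5 and 56.1 in Hep3B-KD, clearly apart (log2 fold change -0.46, SE 0.0255, adjusted p = 1.2e-05). DNAJA1, the most abundant of the 8, fell from 184, 185 and 185 to 155, 152 and 152 FPKM (-0.27, SE 0.0151). DNAJA3 (TID1), its mitochondrial relative, fell from 18.9 ± 0.458 to 15.9 ± 0.409 FPKM (-0.24).

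The J-domain genes that rose were of lower level. DNAJB2, which sends ubiquitinated clients to the proteasome, was at 10.7, 11.0 and 10.4 FPKM in Hep3B-Con and at 15.0, 15.5 and 15.3 in Hep3B-KD, so that all 3 knockdown values were higher (log2 fold change 0.51, SE 0.0348, adjusted p = 3.0e-05). DNAJB4 had the largest rise of the 42 genes, from 3.54, 4.18 and 4.22 to 5.82, 5.45 and 6.21 FPKM (0.54, SE 0.0858). DNAJC7 (TPR2), which binds both HSP70 and HSP90, rose from 6.60 ± 0.208 to 8.31 ± 0.334 FPKM (0.33). DNAJA2 was at 15.8 to 18.1 FPKM and DNAJB6, which keeps polyglutamine proteins soluble, at 14.7 to 15.3, and neither was called. DNAJA2 was called higher when Hep3B-Con replicate 3 was left out (0.13, adjusted p = 0.0235). The 95% interval of the DNAJB6 log2 fold change was -0.06 to 0.08, although with centring its value was -0.10 (adjusted p = 0.0291).

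**Figure D3:**
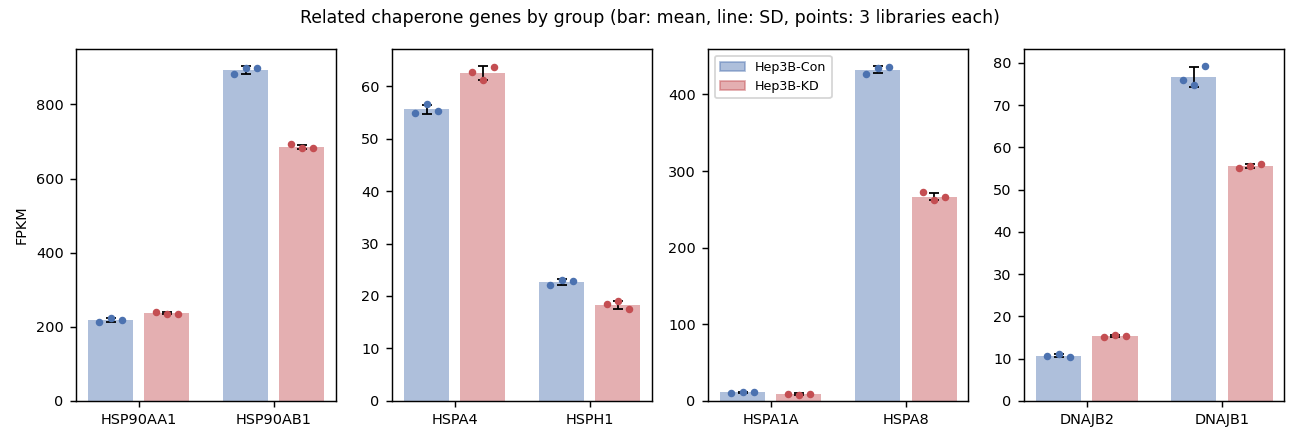
FPKM of 4 pairs of related genes in Hep3B-Con (blue) and Hep3B-KD (red), with bars for the mean, lines for the SD and points for the 3 libraries of each group (y axes start at 0 and differ between panels). HSP90AB1, HSPH1, HSPA8 and DNAJB1 are lower in Hep3B-KD, while HSP90AA1, HSPA4 and DNAJB2 are higher; HSP90AA1 loses that difference with centring.

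The BAG proteins release ADP and client from HSP70. BAG3, which pairs with HSPB8 to send clients to autophagy, was at 22.1, 19.3 and 22.0 FPKM in Hep3B-Con and at 20.2, 18.2 and 18.8 in Hep3B-KD. Its groups overlapped, and it was not called (log2 fold change -0.15, SE 0.0654, adjusted p = 0.0920). BAG1 (-0.16, adjusted p = 0.141) and BAG2 (0.07, adjusted p = 0.253) were not called either, and 42.7% of BAG2 exon bases lie opposite RAB23. With centring, BAG1 (-0.26, adjusted p = 0.0294) and BAG3 (-0.25, adjusted p = 0.0145) were called lower. BAG1 was also called lower with quantile normalization (-0.27, adjusted p = 0.0282) and with limma's voom on recovered reads (adjusted p = 0.0387), and BAG3 with voom (adjusted p = 0.0307). BAG3 was called as well without Hep3B-Con replicate 2 (-0.21, adjusted p = 0.0146).

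The mitochondrial chaperonin is a cage of HSP60, encoded by HSPD1, with a lid of HSP10, encoded by HSPE1. These genes lie head to head on chromosome 2 and share a promoter region. HSPD1 was at 320.3, 328 and 324 FPKM in Hep3B-Con and at 249, 252 and 243 in Hep3B-KD, well apart (log2 fold change -0.39, SE 0.0182, adjusted p = 6.7e-06). HSPE1 was listed at 3.48, 3.67 and 4.59 FPKM in Hep3B-Con and at 3.28, 3.46 and 3.14 in Hep3B-KD. The groups did not overlap, but the change was not called (-0.23, SE 0.109, adjusted p = 0.109), though it was with centring (-0.34, adjusted p = 0.0347).

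HSPD1 thus stood 84.0 ± 11.7 times above HSPE1 in Hep3B-Con and 75.3 ± 2.39 times in Hep3B-KD (SD, n = 3 each). The HSPE1 values are uncertain. Of its 1977 exon bases, 192 belong also to the readthrough gene HSPE1-MOB4, which had no row, and 281 lie opposite HSPD1. A single pseudogene row, HSPE1P2, had 1.58 to 4.65 FPKM, a range that overlaps that of HSPE1. The pseudogene HSPD1P1 had 4.86 to 8.20 FPKM, small beside HSPD1.

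Small heat shock proteins hold unfolded proteins without ATP. HSPB1 (HSP27; ENSG00000106211, chromosome 7, 76302544 to 76304295, plus strand) was at 176, 89.5 and 95.6 FPKM in Hep3B-Con and at 101, 195 and 130.5 in Hep3B-KD. The groups overlapped over most of their range, and Hep3B-Con replicate 1 and Hep3B-KD replicate 2 were the high ones. Its log2 fold change of 0.25 (SE 0.325, adjusted p = 0.531) had a 95% interval of -0.52 to 1.03, wide enough to hold both the fall of HSPA9 and the rise of DNAJB4. The within-group SD of HSPB1 was 0.51 on the log2 scale, the second highest of 795 genes whose mean reached 50 FPKM, whose median SD was 0.03.

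The gene above HSPB1 in that order was FTH1, which encodes the ferritin heavy chain and was looked up after its values were seen. FTH1 was at 160.3, 7.88 and 10.6 FPKM in Hep3B-Con and at 10.2, 179 and 32.9 in Hep3B-KD. The same 2 libraries were high, and over the 6 libraries the deviations of the 2 genes from their group means had a Pearson correlation of 0.9999, given as a description. RPL13, a ribosomal protein gene and next in the order, was at 122, 61.5 and 69.5 and at 62.0, 94.4 and 88.5 FPKM, again highest in those libraries. Without both libraries the HSPB1 log2 fold change was 0.31 (adjusted p = 0.111). With only 1 library left out it ran from 0.0002 without Hep3B-KD replicate 2 to 0.56 without Hep3B-Con replicate 1, not called in either case (adjusted p = 0.9997 and 0.123). The part of this library pattern in the HSPB1 result was not tested beyond that.

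**Figure D4:**
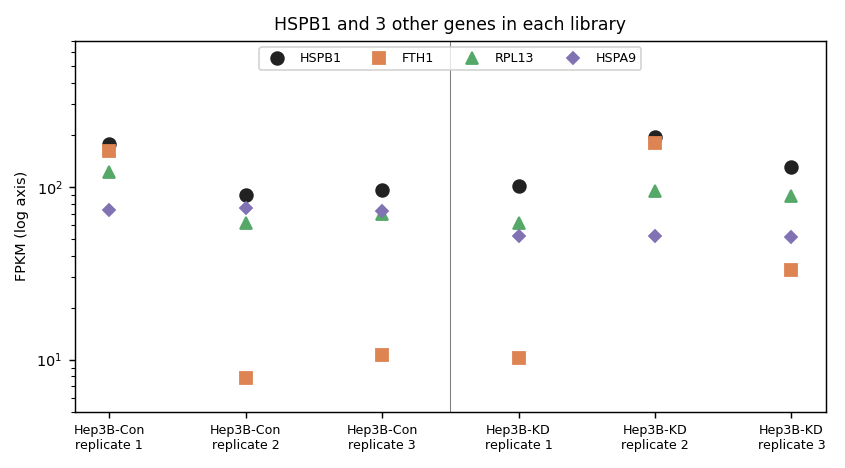
FPKM of HSPB1, FTH1, RPL13 and, for contrast, HSPA9 in each of the 6 libraries (log axis, vertical line between the groups). HSPB1, FTH1 and RPL13 are highest in Hep3B-Con replicate 1 and Hep3B-KD replicate 2, whereas HSPA9 is level within each group.

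The other small heat shock protein genes rose from low levels. HSPB8 (HSP22) went from 3.22, 3.22 and 3.99 to 5.07, 4.70 and 4.55 FPKM, a log2 fold change of 0.45 (SE 0.0962, adjusted p = 0.00612), and without Hep3B-Con replicate 1 and Hep3B-KD replicate 2 the value was 0.41 (adjusted p = 0.0533). With quantile normalization it was 0.30 (adjusted p = 0.0301). HSPB11, better known as IFT25 of the ciliary transport machinery, went from 4.83 ± 0.269 to 6.55 ± 0.733 FPKM (0.43, SE 0.0894). For neither gene did the groups overlap.

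The heat shock factors showed little. HSF1, which drives the heat shock response and is controlled largely after transcription, was at 16.4, 16.5 and 15.6 FPKM in Hep3B-Con and at 16.2, 16.7 and 15.6 in Hep3B-KD. The log2 fold change was 0.00 (adjusted p = 0.987), with a 95% interval of -0.09 to 0.09. HSF2, its partner in development, went from 10.0 ± 0.481 to 11.4 ± 0.605 FPKM (0.19, adjusted p = 0.0221). That call was lost with centring (0.08, adjusted p = 0.229) and with quantile normalization (0.14, adjusted p = 0.0739). It was also lost when Hep3B-Con replicate 1, Hep3B-Con replicate 2 or Hep3B-KD replicate 1 was left out (adjusted p from 0.0621 to 0.0677). Without both Hep3B-Con replicate 1 and Hep3B-KD replicate 2 the value was 0.19 (adjusted p = 0.0530).

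The promoters with heat shock elements can be read against these values. Of the members with a 3-unit element, HSPA8 and DNAJA1 fell and DNAJB6 was not called. Of the 11 members with at least a 2-unit match, 7 fell, 1 rose and 3 were not called, and of the 27 without one, 15 fell, 6 rose and 6 were not called. The median log2 fold change was -0.26 with the match and -0.21 without it. The search took only perfect units in 1 window per gene, so imperfect or more distant elements would be missed. DNAJB1, HSPH1 and HSP90AA1 are among those without a match. The 2 medians thus do not compare genes with and without heat shock elements.

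The direction of change went with the level of the gene. Of the 18 members whose mean reached 50 FPKM, 15 fell, 2 rose and 1 was not called, where 57.1% of all genes at that level were called lower. Of the 24 members under 50 FPKM, 8 fell, 7 rose and 9 were not called, where 21.9% of all such genes were called lower. The median log2 fold change was -0.27 for the abundant members, against -0.14 for all genes at that level, and 0.00 for the others, against 0.13. Spearman's rho between mean level and log2 fold change was -0.58 over the 42 members and -0.24 over all 14221 genes, a description over genes measured in the same 6 libraries. Quantile normalization made the falls of several abundant members smaller by more than 1.5 times, to -0.43 for HSPA8, -0.17 for HSPD1, -0.14 for CDC37 and -0.09 for DNAJA1, all still called. HSP90AB1, the most abundant member, went the other way, from -0.38 to -0.41. HSPA4 was at 0.30 with quantile normalization and at 0.07 with centring, called higher in both (limma adjusted p = 0.000185 and 0.0485). In sum, the members held 1.40% of all FPKM in each Hep3B-Con library and 1.15% to 1.17% in Hep3B-KD.

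**Figure D5:**
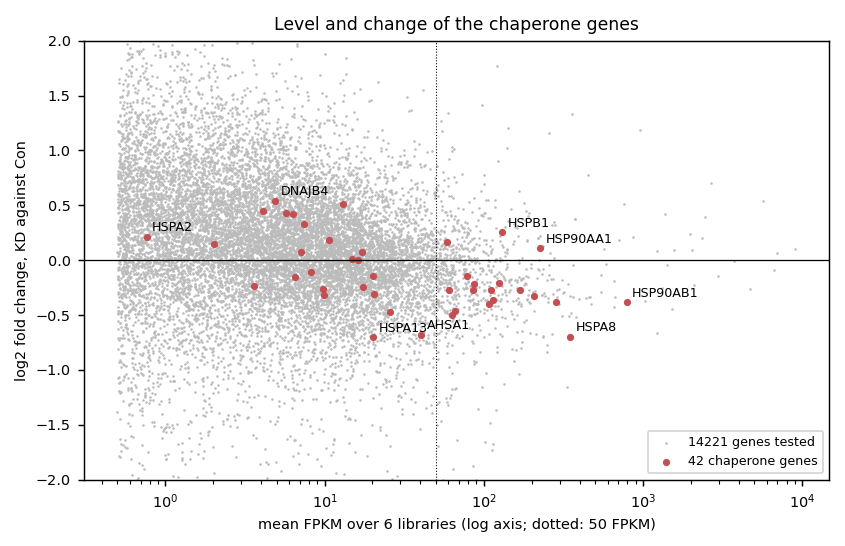
Mean FPKM over the 6 libraries (log axis, dotted line at 50 FPKM) against the log2 fold change, Hep3B-KD against Hep3B-Con, for the 42 genes (red) and all 14221 genes tested (grey, of which 204 lie outside the y range). Right of the dotted line 15 of 18 members were called lower.

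Chaperones outside the list, taken by compartment, gave a point of reference. Of all 14221 genes tested, 36.1% rose and 23.8% fell, with a median of 0.11. Of 42 other cytosolic chaperone and cochaperone genes, 37 were tested, 13 rose and 5 fell, with a median of 0.04. The part that rose was thus near the share over all genes. Among the called genes, the lowest were SGTA, which handles tail-anchored membrane proteins (79.5 ± 0.768 to 46.5 ± 0.240 FPKM, -0.77), and the prefoldin genes PFDN2 (-0.36) and PFDN6 (-0.30), whose complex delivers clients to TRiC. The highest called were the J-domain genes DNAJC13 (0.86), DNAJC6 (0.60) and DNAJB5 (0.51). With centring, 8 were higher and 11 lower, so the balance of this list turned. Over all genes tested, the share of calls that were higher went from 60.2% to 48.5% with centring. The lower ones of this list were 3 when Hep3B-Con replicate 2, Hep3B-Con replicate 3 or Hep3B-KD replicate 3 was left out.

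The next 2 lists also stand beside the 23.8% of all genes tested that fell and the 36.1% that rose. Among genes whose mean reached 50 FPKM, 57.1% fell, and among genes under that level 21.9% fell. Each of these lists holds more genes under that level than above it. Of 18 ER chaperone genes, 15 fell and 0 rose by limma, with a median of -0.32. None was higher at an unadjusted p under 0.05 or with voom, and quantile normalization gave 1 higher. Those that fell included MANF (-0.67), HYOU1 (-0.55) and CANX, the lectin chaperone calnexin (-0.53). Without Hep3B-Con replicate 1 and Hep3B-KD replicate 2, 12 of the 18 fell. Of 9 further mitochondrial chaperone and protease genes, 5 fell and 1, CLPX (0.27), rose, with CLPB (-0.58), LONP1 (-0.44) and TRAP1, the mitochondrial HSP90 (-0.41), as the lowest called. The difference between these lists and the members was not tested.

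The guide strand of a hairpin can also lower transcripts that match its seed. The target in DAGLA, as listed with the study's materials, is printed 5′ to 3′, with the 7 bases that pair with the seed in capitals.
shDAGLA target: gcgacaacaagGCCTTCAa
None of the 42 members carried that 7-base match in its longest annotated 3′ UTR (GENCODE release 29), against 14.5% of 11188 tested genes with such a UTR. The median UTR length was 894.5 bases for the members and 1390 for all these genes.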

How the data were processed

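The authors sequenced mRNA of 3 Hep3B-Con and 3 Hep3B-KD samples and deposited FPKM values for 29908 genes in 1 table with 0 other value columns. Per the labels' processing notes, Bowtie2 2.0.6, TopHat2 2.0.12 and GRCh37 were used, with no role given. The gene counter and strand setting are not given in the sources used here. The exon lengths of GENCODE release 29 (GRCh38) turned 100% of the deposited FPKM values into whole reads (within 0.01), which gave the library totals, so the coordinates printed for genes are those of that release. Depth limits cover counting error only.

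Values were fitted as log2(FPKM + 0.1) with limma 3.58.1 (lmFit, eBayes with trend) in R 4.3.3, without a replicate block. Of the 382 rows whose symbol occurs more than once, all stayed in the fit, and the row with the highest mean stood for the symbol. The fit was also run on simulated reads in which a small part of the genes changed by 2-fold or more. The members changed by less, so that run does not speak to their calls. All 42 genes could be named, and in the other lists the 3 highest and the 3 lowest calls. The members and lists were chosen with earlier results of these data known. A list of genes induced through HSF1 is not reported here. Alternatives covered the filter, pseudocount, scaling, variance trend, limma's voom on recovered reads, pseudogenes summed with members, the replicate block and each library left out. Python 3.11.15, numpy 2.4.6, pandas 2.3.3 and matplotlib 3.10.9 handled tables and figures.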

Additional observations from a re-analysis of the deposited data

How the results depend on the processing

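Over all alternatives the members called higher numbered 7 to 10 and those called lower 22 to 27, and 26 of the 42 members kept their direction and their side of the threshold throughout. With limma's voom on the recovered reads 8975 genes were called, against 8521 as reported, with 9 members higher and 25 lower. The fall of DAGLA was -1.09 to -0.87 (largest limma adjusted p = 0.000545). For the other cytosolic chaperones, centring on the median log ratio gave 8 higher and 11 lower, and leaving out 1 library each gave 3 to 5 lower. For the ER chaperones, quantile normalization gave 1 higher. Changes of sign, all of genes not called as reported, were HSPA2 at -0.10, HSPA4L at -0.10 and BAG2 at -0.023 with quantile normalization, and DNAJA2 at -0.027, DNAJB6 at -0.10, BAG2 at -0.033 and HSF1 at -0.10 with centring. HSF1 was at -0.000331 with voom and at -0.01 without Hep3B-Con replicate 1 and Hep3B-KD replicate 2. With 1 library left out, DNAJB6 lay between -0.0097 and 0.023 and HSF1 between -0.023 and 0.026. The cause of these changes was not tested.

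The labels do not say whether samples with the same replicate number belong together. The correlations of same-numbered deviations were -0.01, -0.07 and 0.00. Such values show no strong shared deviation, but they cannot decide whether a culture was shared. With the replicate block, 8 members were higher and 23 lower, the calls of FKBP5 and HSF2 were lost (adjusted p = 0.0859 and 0.0521) and BAG3 was called lower (adjusted p = 0.0306). With 3 libraries a group, wide intervals such as that of HSPB1 allow changes of either sign.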
